A study of Mus musculus with 8 samples.

Results

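The small heat shock genes of adult mouse femoral bone were described in 7 members, Hspb1, Hspb2, Hspb3, Hspb6, Hspb7, Hspb8 and Cryab, chosen by gene name from the 49315 Ensembl genes of the deposited count table. All 7 had reads in every library and passed the low-count filter. The study sequenced total RNA of femoral shafts, with the ends cut off and the marrow flushed out, from 24-week-old male C57BL6 mice. The groups were 4 mice homozygous for a deletion of Girk3 (Girk3-/-, KO) and 4 wild-type mice (WT). The labels name no other allele or treatment, do not say whether the mice were littermates, and do not give the deleted part of Kcnj9, the gene of Girk3. Each library was taken as 1 mouse. Kcnj9 itself had 0, 8, 4 and 7 counts in KO replicates 1 to 4, against 7, 6, 6 and 23 counts in WT replicates 1 to 4, so its counts overlapped and do not check the labels.

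Small heat shock proteins share an alpha-crystallin domain and assemble into large, variable oligomers. They bind partly unfolded proteins without using ATP and hold them until ATP-driven chaperones such as Hsp70 refold them or pass them on for degradation. Hspb1, Hspb8 and Cryab are known to be raised by heat and other stress through heat shock factor, and Hspb1 is also made by osteoblasts. Hspb2, Hspb3, Hspb6 and Hspb7 are known mainly from skeletal, heart or smooth muscle, where they guard the filaments of the contractile apparatus. Cryab is also abundant in muscle, as a partner of desmin.

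The members lie on 5 chromosomes and are short genes. On GRCm38, the build called mm10, Hspb3 (ENSMUSG00000051456, chromosome 13, 113662896 to 113663676, minus strand) is a single exon of 781 bases. Hspb2 (ENSMUSG00000038086, chromosome 9, 50751078 to 50752354, minus strand) has 834 exonic bases and Hspb1 (ENSMUSG00000004951, chromosome 5, 135887919 to 135889563, plus strand) has 1031. Cryab (ENSMUSG00000032060, chromosome 9, 50751325 to 50756636, plus strand) has 1479 exonic bases and Hspb8 (ENSMUSG00000041548, chromosome 5, 116408491 to 116422864, minus strand) has 1950. Hspb6 (ENSMUSG00000036854, chromosome 7, 30552178 to 30555443, plus strand) has 2299 and Hspb7 (ENSMUSG00000006221, chromosome 4, 141420779 to 141425311, plus strand) has 2769. Hspb2 and Cryab are read from opposite strands and share 252 exonic bases in GENCODE M21. Hspb6 shares 122 exonic bases with Proser3 and 3 with Lin37 on the other strand, and 77 with a microRNA gene within it. The strand setting of the counting is not given in the sources used here, so reads from these shared bases could have been dropped or given to either gene.

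The sequences around the transcription start show how the members differ before their levels are compared. RefSeq windows on GRCm38.p6, from 250 bases before to 50 bases after the start, were at hand for 5 of the 7 members, with 2 starts for Hspb6. Hspb2 and Cryab had no entry. Hspb1 is shown as the stress-induced member with the widest range between libraries, Hspb3 as the member with the smallest p, and Hspb7 as a muscle-restricted member whose genotypes overlapped. Capitals mark the heat shock element cores GAANNTTC and TTCNNGAA and a MEF2-like pattern, CTA and TAG with any 4 bases between them.
Hspb1: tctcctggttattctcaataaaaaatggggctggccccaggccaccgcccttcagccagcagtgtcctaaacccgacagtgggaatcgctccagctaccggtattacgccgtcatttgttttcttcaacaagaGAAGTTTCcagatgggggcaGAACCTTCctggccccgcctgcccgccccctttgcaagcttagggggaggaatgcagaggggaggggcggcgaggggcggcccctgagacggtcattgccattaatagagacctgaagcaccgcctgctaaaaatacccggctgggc
Hspb3: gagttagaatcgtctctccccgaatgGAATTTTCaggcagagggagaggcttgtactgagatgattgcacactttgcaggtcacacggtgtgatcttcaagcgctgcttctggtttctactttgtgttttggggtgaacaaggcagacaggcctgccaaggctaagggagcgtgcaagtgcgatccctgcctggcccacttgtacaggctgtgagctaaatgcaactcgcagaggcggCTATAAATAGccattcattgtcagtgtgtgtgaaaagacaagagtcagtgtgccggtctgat
Hspb7: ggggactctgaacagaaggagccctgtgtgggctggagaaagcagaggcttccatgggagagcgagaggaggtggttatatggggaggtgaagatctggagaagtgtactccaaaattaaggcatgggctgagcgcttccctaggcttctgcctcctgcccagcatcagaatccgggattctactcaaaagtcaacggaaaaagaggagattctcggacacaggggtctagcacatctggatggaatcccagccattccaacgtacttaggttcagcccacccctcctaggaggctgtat
The windows are chr5:135887669-135887968 on the plus strand for Hspb1, chr13:113663627-113663926 on the minus strand for Hspb3 and chr4:141420529-141420828 on the plus strand for Hspb7. Each of the 3 patterns reads the same on both strands, and they were searched in 32851 windows of this length. Hspb1 held GAANNTTC at 2 places, starting 117 and 97 bases before the start site. Hspb3 held it at 1 place, 224 bases before the start, and held the MEF2-like pattern 12 bases before the start, where the match overlaps a TATAAA. Hspb7 held none of the 3 patterns. The Hspb8 window and the second of the Hspb6 windows held 1 GAANNTTC each, and the first Hspb6 window held none. Of all windows, 7.86% held GAANNTTC, 8.52% TTCNNGAA and 3.69% the MEF2-like pattern. A match to these letters is not a measured binding site.

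Per exonic base, Cryab was the most abundant member and Hspb3 the least. On the TPM scale, which divides counts by exon length, Cryab had a level of 1149 ± 283 over the 8 libraries and Hspb3 one of 46.3 ± 12.7 (SD, n = 8). Between them lay Hspb1 at 499.6 ± 294, Hspb6 at 425 ± 112, Hspb8 at 381 ± 65.3, Hspb7 at 326 ± 112 and Hspb2 at 212 ± 37.7 TPM (SD, n = 8). Cryab exceeded Hspb1 in 8 of 8 libraries, and Hspb2 exceeded Hspb3 in 8 of 8 with ranges that did not meet. The neighbours in between exchanged places, with Hspb1 above Hspb6 in 5 libraries, Hspb6 above Hspb8 in 6, Hspb8 above Hspb7 in 5 and Hspb7 above Hspb2 in 6. The order within these 4 pairs therefore varied between libraries, and the differences were not tested. Of the other genes named for this family, Cryaa, Hspb9 and Odf1 had at most 9 counts in any library and were not tested. Hspb11, which serves in ciliary transport, had 5.04 ± 1.22 CPM in KO and 3.47 ± 0.88 CPM in WT (SD, n = 4 each, edgeR adjusted p = 0.277).

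The libraries held 30087749 to 36553713 counts, and in what follows CPM are counts scaled by TMM to a common library size. Those scaling factors ran from 0.831 in KO replicate 4 to 1.18 in WT replicate 4, the libraries with the most and the least muscle RNA. Bone markers were present in all libraries, as the 11 osteoblast and osteocyte markers summed to 5760 to 10477 CPM in KO and 5158 to 12965 CPM in WT (exact permutation p = 0.543). Of these 11 markers, 10 had negative log2 fold changes (median -0.28), and edgeR called 0, where it called 0.0115% of all genes. Muscle was abundant too. The 28 skeletal muscle markers summed to 133080 to 214602 CPM in KO and 81868 to 150496 CPM in WT (exact permutation p = 0.286), 23 of 28 had positive log2 fold changes, and none was at 0. In such bulk tissue fewer cells of a type and less RNA per cell cannot be told apart.

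No small heat shock gene passed the comparison of KO with WT. All 7 log2 fold changes were positive, between 0.053 and 0.98, with a median of 0.46, against -0.012 over the 17450 genes tested. The members are short, and the tested genes in deciles 1 to 4 by exon length, the shortest, had medians of 0.21, 0.20, 0.13 and 0.063. Hspb6, Hspb7 and Hspb8 were negative in some of the other settings described below. In edgeR's quasi-likelihood test, adjusted by Benjamini-Hochberg over those genes, 0 of 7 passed an adjusted p of 0.05, as did 0.0115% of all genes. At an unadjusted p under 0.05, 3 of 7 were higher in KO, namely Hspb1, Hspb2 and Hspb3, where 9.59% of all genes were higher at that level. DESeq2 called Hspb2 and Hspb3 higher, where it called 3.9% of its genes higher and 6.45% in either direction. Limma-voom called Hspb3, where it called 2.41% higher and 4.04% in either direction. Hspb3 also passed in edgeR with no low-count filter (0.171% of genes called higher) and without both replicates 4 (1.61% called higher). Within the muscle-restricted class, Hspb2 and Hspb3 had every KO library above every WT library, as did 7.33% of all genes tested. Hspb6 and Hspb7 overlapped, and in the stress-induced class all 3 overlapped.

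**Figure D1:**
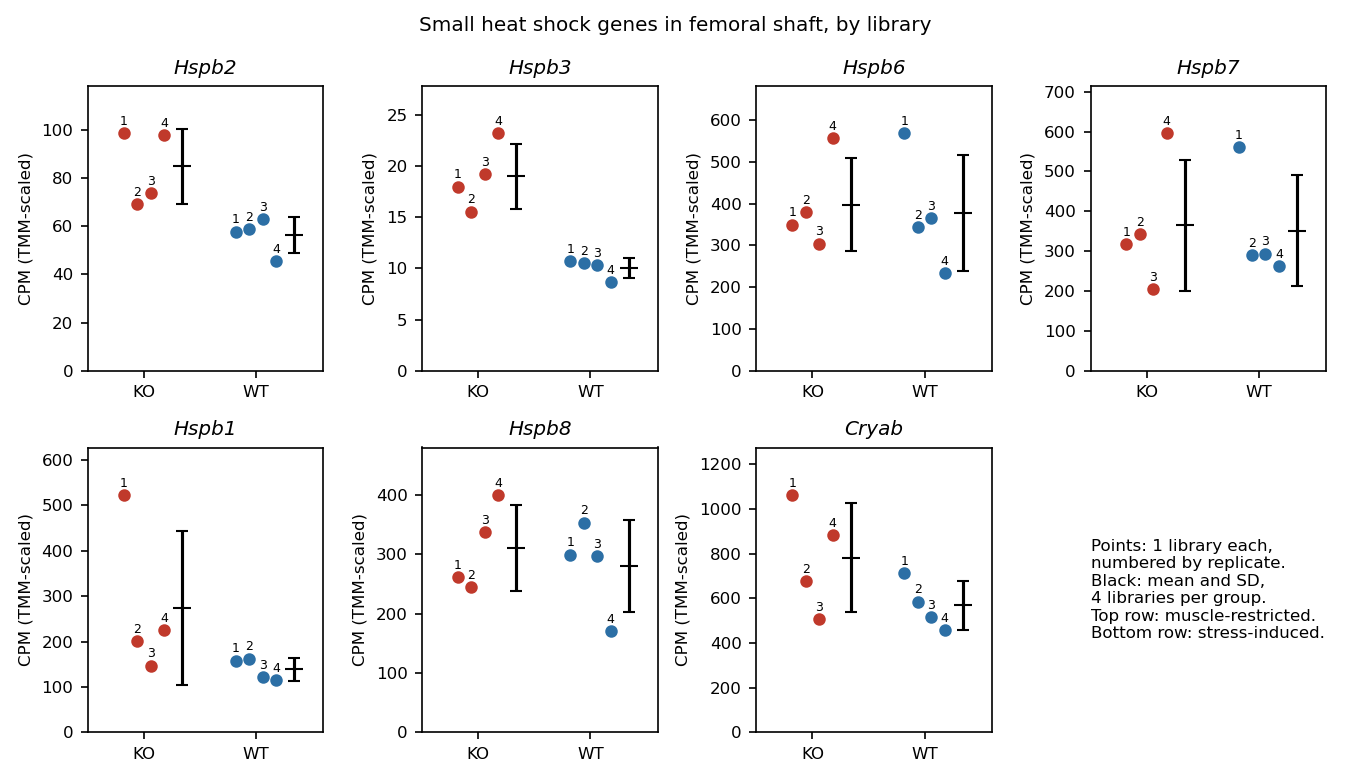
Level of each small heat shock gene in CPM (vertical axis, from 0) in the 4 KO and 4 WT libraries, numbered by replicate, with mean and SD in black. The 4 KO points lie above the 4 WT points for Hspb2 and Hspb3, Hspb1 and Cryab are highest in KO replicate 1, and Hspb6 and Hspb7 are high in KO replicate 4 and WT replicate 1.

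Hspb3, the smallest of the muscle-restricted members and a known partner of Hspb2, separated the genotypes most clearly. It had 17.96, 15.5, 19.2 and 23.2 CPM in KO replicates 1 to 4, against 10.7, 10.5, 10.3 and 8.64 CPM in WT replicates 1 to 4. Every KO library lay above every WT library. The raw counts ran from 528 to 612 in KO and from 306 to 372 in WT, so at least 306 reads stood behind each value. KO exceeded WT by 0.92 ± 0.15 on the log2 scale (SE, edgeR adjusted p = 0.0714), rank 18 by p among all genes tested. An exact permutation of the libraries gave p = 0.0286, and 4 against 4 libraries can give no smaller one.

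Hspb2, which binds myotonic dystrophy kinase in muscle, showed the same separation at a smaller size. It had 98.5, 69.1, 73.9 and 97.8 CPM in KO replicates 1 to 4, against 57.8, 58.9, 62.9 and 45.4 CPM in WT replicates 1 to 4. The closest libraries of the 2 groups were KO replicate 2 and WT replicate 3. KO replicate 1, where Hspb1 and Cryab were also highest, was the highest library, with KO replicate 4 close to it. Its log2 fold change was 0.59 (SE 0.16, edgeR adjusted p = 0.105, exact permutation p = 0.0286). Hspb2 and Hspb3 were the 2 members of 7 with every KO library above every WT library, a pattern that 7.33% of all genes tested showed. Other genes described below showed it too, such as Tcap, Tnni2, Pvalb, Stub1, Hspe1 and Fkbp4.

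Hspb6 and Hspb7, the other muscle-restricted members, had overlapping genotypes. Hspb6, a target of cAMP-dependent protein kinase in muscle, had 349.8, 379, 304 and 557 CPM in KO replicates 1 to 4, against 568, 344, 366 and 233 CPM in WT replicates 1 to 4. Hspb7, known from heart and skeletal muscle as a binder of filamin C, had 318, 342, 205 and 595 CPM in KO replicates 1 to 4, against 560, 291, 294 and 262 CPM in WT replicates 1 to 4. For both genes, KO replicate 4 and WT replicate 1 were the high libraries. Hspb6 averaged 398 ± 111 CPM in KO and 378 ± 139 CPM in WT, and Hspb7 averaged 365 ± 165 CPM in KO and 352 ± 140 CPM in WT (SD, n = 4 each). The log2 fold changes were 0.074 for Hspb6 (SE 0.28, edgeR adjusted p = 0.923) and 0.053 for Hspb7 (SE 0.34, edgeR adjusted p = 0.956). Both turned negative on library totals without TMM, at -0.025 and -0.068, a scaling that moved the median of all genes by -0.100. Set against that median they were 0.088 and 0.045.

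Hspb1, which regulates actin filaments and is phosphorylated by the stress kinase Mapkapk2, had its highest level in KO replicate 1. It had 523, 202, 147 and 226 CPM in KO replicates 1 to 4, against 158, 162, 121 and 114 CPM in WT replicates 1 to 4. KO replicate 1 stood 2.32 times above the next library, while KO replicate 3 lay among the WT libraries. The log2 fold change was 0.98 (SE 0.35, edgeR adjusted p = 0.184, exact permutation p = 0.0857), and without KO replicate 1 it was 0.46 (SE 0.19, edgeR adjusted p = 0.332).

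Cryab, the desmin-binding alphaB-crystallin, ranked the KO libraries in the same order as Hspb1. It had 1063, 678, 506 and 885 CPM in KO replicates 1 to 4, against 714, 585, 516 and 459 CPM in WT replicates 1 to 4. KO replicate 1 was again highest, and KO replicate 3 lay below 3 of the WT libraries. Its log2 fold change was 0.46 (SE 0.24, edgeR adjusted p = 0.353), and 0.28 without KO replicate 1 (SE 0.23, edgeR adjusted p = 0.633).

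Hspb8, which works with the co-chaperone Bag3 to send damaged filament proteins to autophagy, ordered the libraries differently from Hspb1 and Cryab. It had 261, 245, 338 and 400.1 CPM in KO replicates 1 to 4, against 299, 353, 297 and 170 CPM in WT replicates 1 to 4. KO replicates 1 and 2 lay below 3 of the 4 WT libraries, and WT replicate 4 was lowest. The log2 fold change was 0.15 (SE 0.24, edgeR adjusted p = 0.791).

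Many genes around the heat shock factor were highest in the same library as Hspb1 and Cryab. Of the 15 genes listed as the factors Hsf1 and Hsf2 and their targets, 12 had their highest level in KO replicate 1. The share of all genes with their highest level in that library was not computed. Hspa1a, an inducible Hsp70, had 152, 18.4, 5.27 and 15.1 CPM in KO replicates 1 to 4, against 15.6, 38.9, 9.48 and 9.83 CPM in WT replicates 1 to 4. Its near-identical copy Hspa1b had 190 CPM in KO replicate 1 and 44.9 CPM in WT replicate 2, the next highest, and reads of the pair could have been split between them. Hsp90aa1, the inducible Hsp90, had 616 CPM in KO replicate 1, against at most 285 CPM in the other KO libraries and 299 CPM in WT. Hsf1 itself ran from 38.5 to 55.4 CPM in KO and from 39.7 to 47.7 CPM in WT.

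As a list, 14 of these 15 genes were positive in log2 fold change (median 0.26). Among them edgeR, DESeq2 and limma-voom called 0, where they called 0.0115%, 6.45% and 4.04% of their genes. At an unadjusted p under 0.05, 3 were higher, as were 9.59% of all genes. The smallest p values were those of Hspe1, the mitochondrial co-chaperone (0.64 with SE 0.21, adjusted p = 0.163 in edgeR), and Fkbp4, a co-chaperone of Hsp90 (0.39 with SE 0.14, adjusted p = 0.201 in edgeR). Without KO replicate 1 the list's median was 0.047, with 8 of 15 positive, and Hspa1a and Hspa1b had log2 fold changes of -0.52 and -0.70 (edgeR adjusted p = 0.728 and 0.682). Other cell markers were high in the same library. All 6 adipocyte markers peaked in KO replicate 1, where they summed to 819 CPM, against 324 to 416 CPM in the other KO libraries and 258 to 353 CPM in WT. Of 8 neutrophil markers, 6 also peaked there, with sums of 770 to 7290 CPM in KO and 1529 to 5344 CPM in WT. The part of these cells in the levels of Hspb1 and Cryab was not tested.

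**Figure D2:**
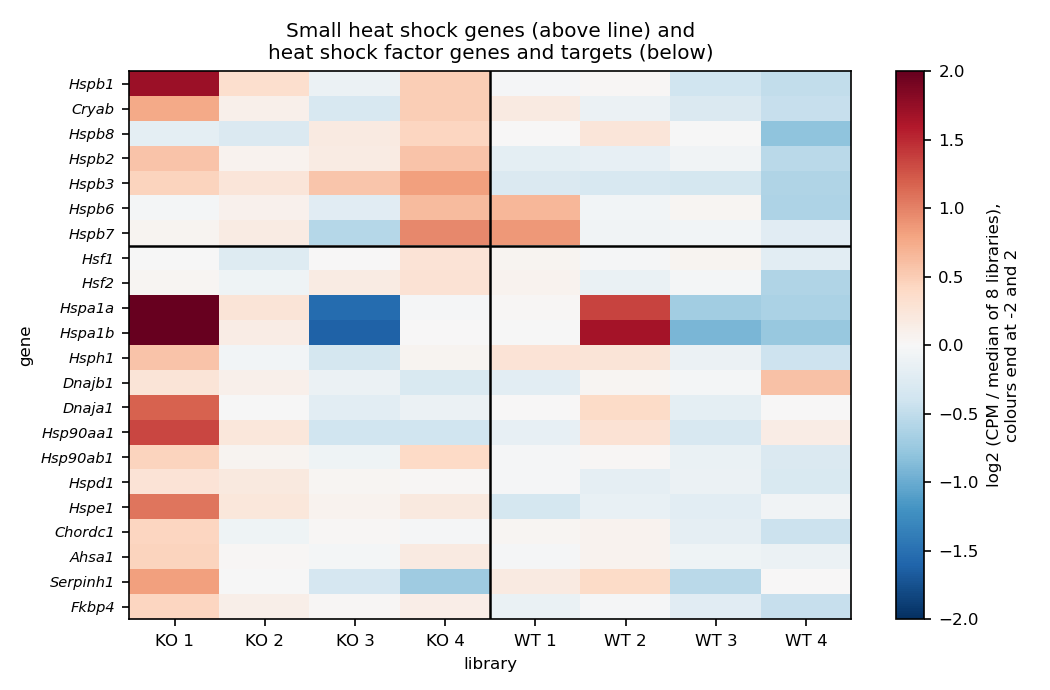
Colour gives log2 of the CPM over the gene's median of 8 libraries, with genes down the page and KO libraries left of WT libraries. In KO replicate 1 Hspb1, Cryab, Hspa1a, Hspa1b and Hsp90aa1 are high together, while Hspb8, Hspb6 and Hspb7 are near their medians there. Hspb2 is also highest in KO replicate 1, closely followed by KO replicate 4 (98.5 and 97.8 CPM).

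None of the listed partners and kinases of small heat shock proteins passed the comparison of KO with WT. Of 15 listed genes, 12 were positive and 3 negative in log2 fold change (median 0.12). Among them edgeR, DESeq2 and limma-voom called 0, where they called 0.0115%, 6.45% and 4.04% of their genes. At an unadjusted p under 0.05 there were 0, where 9.59% of all genes were higher in KO. Stub1, the ubiquitin ligase that acts on chaperone clients, was nearest to passing at 60.0 ± 1.21 CPM in KO and 52.6 ± 1.05 CPM in WT (SD, n = 4 each, edgeR adjusted p = 0.289). The autophagy receptor gene Sqstm1 had a log2 fold change of 0.39 (edgeR adjusted p = 0.328). Bag3 had 194, 139, 120 and 165 CPM in KO replicates 1 to 4, against 148, 123, 119 and 89.3 CPM in WT replicates 1 to 4, highest in KO replicate 1 as for Cryab. Mapkapk2, the kinase of Hspb1, had a log2 fold change of 0.27 (edgeR adjusted p = 0.423).

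The filament and Z-disc genes whose proteins are guarded in muscle were positive in log2 fold change for 11 of 15 (median 0.20). Among them edgeR called 0, 1 was higher at an unadjusted p under 0.05 (9.59% of all genes), and DESeq2 and limma-voom each called 1 (6.45% and 4.04% of their genes). Tcap, the cap of titin at the Z-disc, had 2578 ± 328 CPM in KO and 1499 ± 186 CPM in WT (SD, n = 4 each, log2 fold change 0.78, edgeR adjusted p = 0.0914). Des, the desmin gene, had 3471 ± 889 CPM in KO and 2387 ± 595 CPM in WT (SD, n = 4 each, log2 fold change 0.54, edgeR adjusted p = 0.307). Among the skeletal muscle markers the smallest p values were those of the fast-fibre genes Tnni2 (0.80 in log2 fold change, edgeR adjusted p = 0.128) and Pvalb (0.77, edgeR adjusted p = 0.155). By size the slow-fibre genes of the list were larger, such as Tnnc1 (1.66, edgeR adjusted p = 0.19) and Myl3 (1.25, edgeR adjusted p = 0.163). Of the 28 markers edgeR called 0, DESeq2 3 and limma-voom 0, where they called 0.0115%, 6.45% and 4.04% of their genes. At an unadjusted p under 0.05, 6 of the 28 were higher, as were 9.59% of all genes.

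A muscle score of each library, the mean log2 CPM of those 28 markers, was set against each member over the 8 libraries. The score weighs every marker alike, and its order of libraries differed from that of the summed CPM. KO replicate 2 scored 11.04 with a sum of 133080 CPM, and KO replicate 3 scored 10.65 with 162808 CPM. Their listed slow-fibre markers summed to 4155 and 1013 CPM. The score can thus mix fibre type with muscle content, and the part of each was not tested. Hspb6 followed the score most closely, with Pearson r = 0.793 (exact permutation p = 0.0211) and Spearman rho = 0.786 (exact permutation p = 0.0279). Over the 7 relations the adjusted p values were 0.124 and 0.195 for Hspb6, and none of the 7 passed. For Hspb7, r was 0.644 and rho 0.714 (exact permutation p = 0.084 and 0.0576, adjusted 0.135 and 0.202). For Hspb3, r was 0.706 and rho 0.524 (exact permutation p = 0.0431 and 0.197, adjusted 0.124 and 0.419), and for Hspb2, r was 0.692 and rho 0.429 (exact permutation p = 0.053 and 0.299, adjusted 0.124 and 0.419). Hspb1 had the lowest values, r = 0.286 and rho = 0.357 (exact permutation p = 0.452 and 0.389, adjusted 0.452 and 0.454). Hspb8 had r = 0.634 and rho = 0.310 (exact permutation p = 0.0963 and 0.462, adjusted 0.135 and 0.462), and Cryab r = 0.538 and rho = 0.429 (exact permutation p = 0.169 and 0.299, adjusted 0.197 and 0.419). Without KO replicate 4 and WT replicate 4, the libraries farthest from the median score, r was 0.319 for Hspb6, 0.293 for Hspb7, 0.141 for Hspb3, -0.017 for Hspb2, -0.125 for Hspb1, -0.721 for Hspb8 and -0.012 for Cryab. All 7 values of r were thus lower without those 2 libraries. They are the extremes of the score, so leaving them out also narrows its range. The score ran from 10.6 to 11.5 in KO and from 9.93 to 10.8 in WT. An r over both groups therefore also holds the difference between genotypes. Within KO and within WT (n = 4 each), r was 0.945 and 0.847 for Hspb6 and 0.883 and 0.613 for Hspb7. It was 0.532 and 0.838 for Hspb3 and 0.221 and 0.868 for Hspb2. Hspb1 had -0.260 and 0.332, Hspb8 0.551 and 0.689, and Cryab 0.192 and 0.624.

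**Figure D3:**
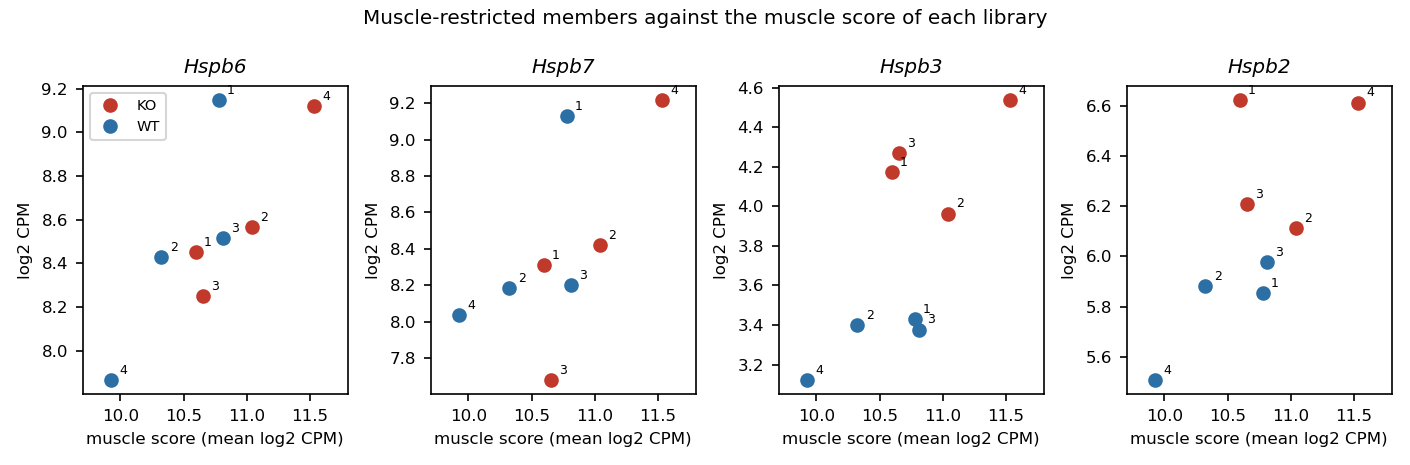
Level of 4 muscle-restricted members in log2 CPM (vertical axis) against the muscle score, the mean log2 CPM of 28 skeletal muscle markers (horizontal axis), with KO and WT libraries numbered by replicate. For Hspb3 and Hspb2 the KO libraries lie above the WT libraries at like scores, and for Hspb6 and Hspb7 they do not.

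With the muscle score as a covariate, the muscle-restricted members differed more among themselves. Hspb3 passed in that fit at 0.77 on the log2 scale (SE 0.15; edgeR adjusted p = 0.0221), where 4.3% of all genes were called higher. All 8 neutrophil markers and 1 of the 15 heat shock factor genes were also called higher in it, and the part of the neutrophil markers in the Hspb3 value was not tested. Hspb2 had 0.47 (SE 0.16, edgeR adjusted p = 0.101). Hspb6 and Hspb7 were negative at -0.38 (SE 0.19, edgeR adjusted p = 0.231) and -0.52 (SE 0.27, edgeR adjusted p = 0.261). Hspb1 had 1.12 (edgeR adjusted p = 0.121), Cryab 0.35 (edgeR adjusted p = 0.448) and Hspb8 -0.11 (edgeR adjusted p = 0.812). The members with the shortest exons had the largest log2 fold changes. Hspb3, Hspb2 and Hspb1 fall in decile 1 of all genes by exon length, the shortest, whose median log2 fold change was 0.21, and Cryab in decile 2, with a median of 0.20. Hspb8 and Hspb6 fall in decile 3, with a median of 0.13, and Hspb7 in decile 4, with 0.063. A fitted trend with exon length was then taken out of each library (0.0229% of all genes called), which reduced the trend but left part of it. The decile medians were then 0.090, 0.077, 0.063 and 0.043 in deciles 1 to 4, against 0.0025 in decile 10. With these offsets the log2 fold changes were 0.79 for Hspb3 (SE 0.17, edgeR adjusted p = 0.114) and 0.80 for Hspb1 (edgeR adjusted p = 0.274). Hspb2 had 0.45 (edgeR adjusted p = 0.23) and Cryab 0.32 (edgeR adjusted p = 0.586). The log2 fold changes of Hspb8, Hspb7 and Hspb6 were 0.064, 0.031 and 0.011.

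**Figure D4:**
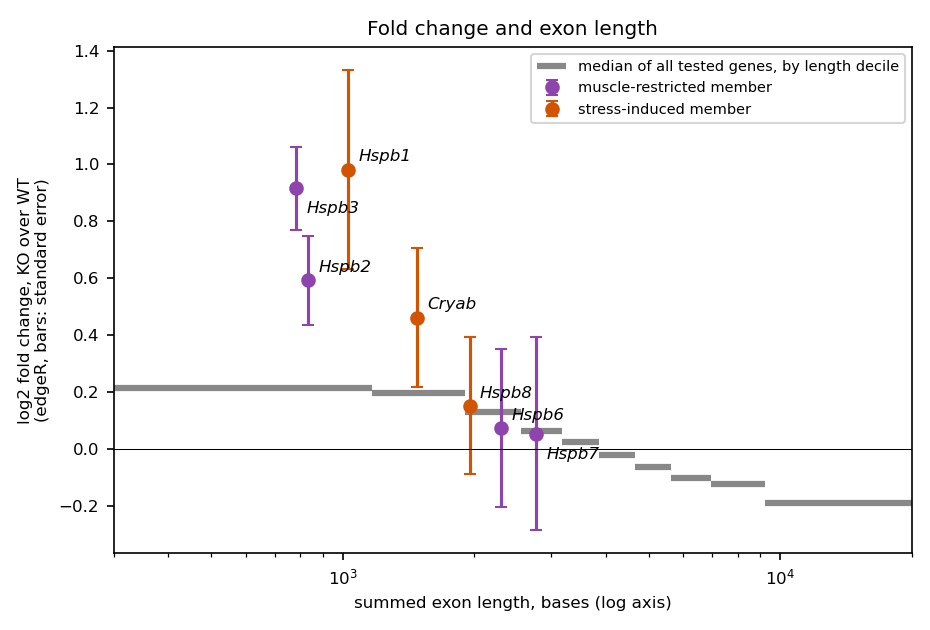
Log2 fold change of KO over WT with its standard error (vertical axis) against summed exon length (horizontal log axis), with grey bars for the median of all tested genes in each decile of length. Hspb8, Hspb6 and Hspb7 lie near the grey bars of their lengths, and Hspb3, Hspb2, Hspb1 and Cryab lie above theirs.

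**Figure D5:**
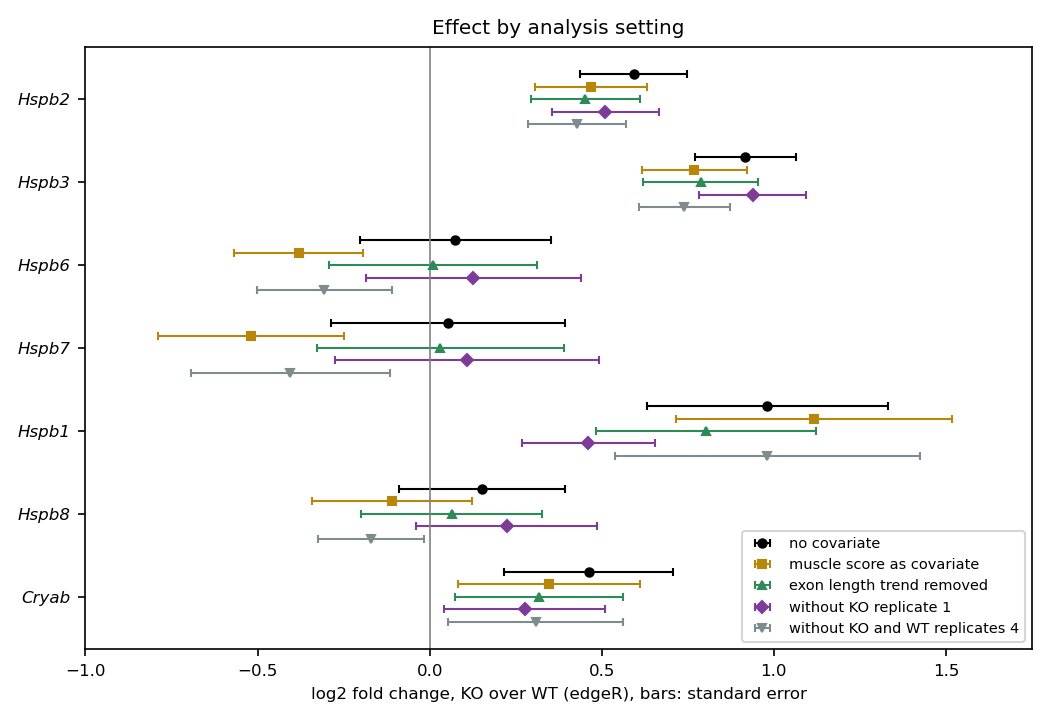
Log2 fold change of KO over WT with its standard error (horizontal axis) for each member under 5 settings of the edgeR fit. Hspb2, Hspb3, Hspb1 and Cryab stay positive in all 5, Hspb1 is at 0.46 without KO replicate 1, and Hspb6, Hspb7 and Hspb8 turn negative with the muscle score or without replicates 4.

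The genes most like each member were sought among 13321 protein-coding genes by Pearson correlation of log2 CPM over the 8 libraries. Hspb1 was most like Ahsa1, an activator of Hsp90 (r = 0.974), Cacybp (0.969) and Magt1 (0.961). Cryab was most like Pcdhga12 (r = 0.993), Bag3 (0.960) and Tpgs2 (0.954). Hspb2 was most like Emc6 (r = 0.989), Fam114a2 (0.989) and Phpt1 (0.989). Hspb3 was most like Eef1g, a subunit of translation elongation factor (r = 0.992), Cradd (0.986) and Gstp1, a glutathione transferase (0.983). Hspb6 was most like Lmod2, an actin nucleator of striated muscle (r = 0.973), Ctnna3 (0.968) and the muscle kinase gene Alpk3 (0.966). Hspb7 was most like Rhpn2 (r = 0.976), Myo5b (0.962) and Shisa3 (0.956), and Hspb8 most like Gpt2 (0.988), Hoxc10 (0.984) and Amd1 (0.977). The genes were picked as the highest of 13321 values of r over the same 8 libraries, which differ in genotype and muscle content, so r is given only as a description.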

How the data were processed

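Total RNA of femoral shafts was sequenced from 4 KO and 4 WT mice, grouped and numbered by their titles. The values are raw counts for each Ensembl gene, in 1 table the authors deposited. The submitters' processing notes list bcl2fastq 2.17, STAR 2.5.2b, Subread 1.5.2 with featureCounts, and the mm10 build. For strand, annotation release and multiply mapped reads, the setting is not given in the sources used here. GENCODE M21 on GRCm38 gave symbols, coordinates and exon lengths.

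KO was set against WT in edgeR 4.0.16 under R 4.3.3 (quasi-likelihood test, robust, TMM, filterByExpr, Benjamini-Hochberg over 17450 genes, threshold 0.05). Alternatives used DESeq2 1.42.0, limma 3.58.1, other scalings and filters, the replicate block, a muscle covariate, loess offsets on exon length (span 0.3) and omitted libraries, and the pipeline was tested on simulated data. Log2 CPM used a prior count of 2. Exact permutation tests were two-sided, over 70 arrangements between groups and 40320 orderings for correlations. No pair of libraries was a repeat (chi-square per degree of freedom at least 39.4). The p-values for KO against WT set the difference between groups against the spread between these libraries.

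Named are all members, the 2 genes with the smallest p in a list, and the 3 genes most like each member with at least 1 CPM. Hspa1a, Hspa1b, Hsp90aa1, Hsf1, Bag3 and Mapkapk2 were named after their values were seen. Members and lists were chosen with earlier results of these data known.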

Additional observations from a re-analysis of the deposited data

Results flagged for a closer look

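Hspb7 in WT replicate 1, at 560 CPM, stood apart from the other WT libraries, which had 262, 291 and 294 CPM. The gap to the nearest library was 0.894 of the range of the WT group, above Dixon's critical value for 4 samples. It was the 1 such library among 14 groups of 4 values checked, and chance flags about 1 group in 20. Hspb6, at 568 CPM, was also highest in WT replicate 1. Without that library the log2 fold changes of KO over WT were 0.37 for Hspb7 (SE 0.31, edgeR adjusted p = 0.611) and 0.34 for Hspb6 (SE 0.25, edgeR adjusted p = 0.561).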

How the results depend on the processing

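Against 2 genes called by edgeR over the whole table, DESeq2 called 994 and limma-voom 705. In edgeR, 71 were called without a low-count filter, 1106 with the muscle score and 4 with the offsets on exon length. Without both replicates 4 it called 458, and leaving out 1 library at a time gave 2 to 4. With the replicate block edgeR called 1. Same-numbered libraries had correlations of deviations between -0.568 and -0.166, and 0 of 4 matched best with their own number, so the numbers were not taken as pairs. No member's call changed with the block.

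Hspb3 passed with DESeq2 (0.92), limma-voom (0.81), no low-count filter (0.91), the muscle score (0.77) and without both replicates 4 (0.74), and Hspb2 with DESeq2 (0.59). Hspb6, Hspb7 and Hspb8 were negative with limma-voom (-0.11, -0.22 and -0.031), the muscle score (-0.38, -0.52 and -0.11) and without both replicates 4 (-0.31, -0.40 and -0.17). Hspb6 and Hspb7 were so on library totals (-0.025 and -0.068). The cause was not tested. Leaving out 1 library at a time gave no call of a member. It gave 0.46 to 1.19 for Hspb1, 0.50 to 0.67 for Hspb2, 0.81 to 0.996 for Hspb3, -0.13 to 0.34 for Hspb6, -0.28 to 0.37 for Hspb7, -0.031 to 0.28 for Hspb8 and 0.28 to 0.62 for Cryab. The negative values came without KO or WT replicate 4 for Hspb6, without KO replicate 4 or WT replicate 2, 3 or 4 for Hspb7 and without WT replicate 4 for Hspb8. With limma-voom Hspb1 was 0.47. The other settings run, besides those named here, kept the sign of every member.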

Other observations

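Ratios between members within a library do not depend on library scaling, but a trend with exon length can remain in them. The log2 ratio of Hspb3 to Hspb7 was -4.14, -4.46, -3.41 and -4.68 in KO replicates 1 to 4, against -5.70, -4.78, -4.82 and -4.91 in WT replicates 1 to 4. The groups did not overlap in this ratio, and the closest libraries were KO replicate 4 and WT replicate 2. It sets the member with the largest log2 fold change of the class against the one with the smallest. The ratio was picked with the values known. Hspb3 has 781 exonic bases and Hspb7 has 2769, and the part of exon length in their ratio was not tested. The other ratios computed among the muscle-restricted members overlapped between groups. Hspb3 to Hspb2 averaged -2.15 ± 0.22 in KO and -2.47 ± 0.093 in WT, Hspb2 to Hspb7 -2.02 ± 0.53 in KO and -2.58 ± 0.48 in WT, and Hspb6 to Hspb7 0.19 ± 0.28 in KO and 0.10 ± 0.22 in WT (SD, n = 4 each). The log2 ratio of Hspb2 to Cryab, the opposed neighbours on chromosome 9, averaged -3.17 ± 0.28 in KO and -3.33 ± 0.24 in WT (SD, n = 4 each) and overlapped. Hspb1 to Cryab averaged -1.63 ± 0.42 in KO and -2.03 ± 0.14 in WT (SD, n = 4 each), with -1.02 in KO replicate 1. The mean log2 CPM of the 4 muscle-restricted members less that of the 3 stress-induced members was -1.67 ± 0.33 in KO and -1.60 ± 0.18 in WT (SD, n = 4 each), and lowest in KO replicate 1 at -2.15. No test was made of these ratios, since the members were chosen with results known.

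Slow-fibre markers, which include Myl3 and Tnnc1, were uneven between libraries. All 8 were positive in log2 fold change (median 1.22), and 4 were higher at an unadjusted p under 0.05, as were 9.59% of all genes. Their sum ran from 1013 to 5616 CPM in KO and from 792 to 1955 CPM in WT (exact permutation p = 0.286), and edgeR called 0 and DESeq2 1, where DESeq2 called 6.45% of its genes. By library the sums were 1452, 4155, 1013 and 5616 CPM in KO replicates 1 to 4, against 1955, 792 and 1883 CPM in WT replicates 1 to 3 and 932 CPM in WT replicate 4. Hspb6 and Hspb7 ordered the KO libraries as these sums did, from replicate 4 through 2 and 1 to 3. In WT both genes and the sums were highest in replicate 1 and next in replicate 3, while replicates 2 and 4 changed places. Smooth muscle markers summed to 717 to 961 CPM in KO and 527 to 871 CPM in WT (exact permutation p = 0.657). Heart markers summed to 3.99 to 9.74 CPM in KO and 4.39 to 5.37 CPM in WT (exact permutation p = 0.143). Schwann cell markers summed to 103 to 124 CPM in KO and 79.2 to 105 CPM in WT (exact permutation p = 0.0857), and endothelial markers to 394 to 521 CPM in KO and 473 to 494 CPM in WT (exact permutation p = 0.343). Red cell markers summed to 4420 to 8870 CPM in KO and 3625 to 11552 CPM in WT (exact permutation p = 1.0000). Their part in the levels of the small heat shock genes was not tested.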
